A study of Daucus carota with 6 samples.

Results

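The tetrapyrrole genes of carrot, those for making and breaking down chlorophyll and heme, were followed in fleshy roots of 3 betanin-transgenic (BC) and 3 non-transgenic (WT) carrot samples. BC plants carry CYP76AD1S, cDOPA5GTS and DODA1S, a cytochrome P450, a glucosyltransferase and a dioxygenase that together turn tyrosine into betanin, the red-violet pigment of beet. The sources used here do not give the promoters of these transgenes, the number of transformed lines, or the age and growth light of the plants. Whether replicates were separate plants is not labelled, and the p-values below measure the spread between these samples, which may be technical. Members were all rows of the deposited expression table whose KEGG pathway entry held ko00860, porphyrin and chlorophyll metabolism, which gave 64 of 35073 genes. The table gives FPKM, sequenced fragments scaled by transcript length and by library size, so levels below are per length and can be set beside each other between genes.

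All plant tetrapyrroles start from glutamate. A shared series of steps in the plastid activates glutamate on its tRNA, turns it into 5-aminolevulinic acid and builds the ring up to protoporphyrin IX. There the route forks: magnesium chelatase leads to chlorophyll, and ferrochelatase leads to heme, from which the bilin chromophore of phytochrome is also made. Chlorophyll is dismantled by another set of enzymes during degreening and turnover. Carrot fleshy roots grow in the dark and are coloured by carotenoids, although their shoulders turn green when exposed to light.

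A gene was tested when it reached at least 1 FPKM in at least 3 of the 6 samples, and 55 of the 64 members did. Of the 9 members not tested, 2 were listed at 0 in every sample and 8 never reached 1 FPKM; the exception was DCAR_023281, assigned to uroporphyrin-III C-methyltransferase, with 2.13 FPKM in WT replicate 2 and 0 in the other 5 samples. The tested members fell on 33 of the 34 enzyme steps and lay between a group mean of 0.533 and 282 FPKM. Differences are BC minus WT in log2(FPKM + 1), which understates the change of low genes. They were tested with limma over all 21033 tested genes, with Benjamini-Hochberg adjustment, and a gene is called when its adjusted p was below 0.05.

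Across the whole table the number of genes above 0 was 24137 to 24257 in WT and 24954 to 25274 in BC, and summed FPKM was 1141950 to 1186760 in WT and 1184880 to 1287460 in BC. The number of sequenced reads behind these values is unknown. Of the tested genes 46.4% were called, 22.8% higher and 23.5% lower in BC, with a median log2 difference of -0.02. Rescaling the samples to equal totals moved that median to -0.11. As markers of green tissue, chlorophyll a-b binding and Rubisco small chain genes gave 29 rows, all tested, of which 22 were called higher and 2 lower, and none of which was at 0 in all samples. Their summed level was 2568 to 4154 FPKM in WT roots and 12762 to 13776 FPKM in BC. Some of the 29 rows, such as DCAR_029208 and DCAR_001475, are described first as another protein and are in these counts and sums. Of 3 root marker rows, a Casparian strip gene and a SHORT-ROOT-like gene were at 0 in all 6 samples, and SHORT-ROOT (DCAR_010820) was at 1.42, 2.53 and 1.5 FPKM in WT roots and 8.04, 0.77 and 16.9 FPKM in BC. Phytoene synthases and sucrose synthases were listed as markers of the storage root. The carotenoid gene phytoene synthase (DCAR_010057) was at 163 to 212 FPKM in WT roots and 354 to 436 FPKM in BC. The most abundant sucrose synthase, DCAR_028527, was at 95.5 ± 32.3 and 118 ± 33.3 FPKM (SD) and was not called (limma adjusted p = 0.411). Of the 6 tested rows of that list 3 were called higher and 1, the sucrose synthase DCAR_024776, lower. In such bulk samples a change in the number of cells of a type and a change in the RNA of each cell cannot be told apart.

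Of the 13 tested genes of the chlorophyll branch 11 were called, and of the 17 tested genes of the shared steps before the fork 1 was. Over all members 14 of 55 were called higher (25.5%, beside 22.8% of all genes) and 8 lower (14.5%, beside 23.5%). Split by class, the chlorophyll branch had 8 higher and 3 lower of 13 tested, with a median log2 difference of 0.81. Among the 17 shared genes 1 was called higher and none lower by limma, with a median of -0.07; at an unadjusted p below 0.05, 1 was lower, the glutamyl-tRNA synthetase DCAR_006224. The heme branch, taken to include the siroheme genes, had 2 higher and 4 lower of 12, with a median of -0.04, and without the siroheme genes 1 higher and 3 lower of 9, with a median of -0.10. Breakdown had 3 higher and 1 lower of 11, with a median of 0.27. The difference between classes was not tested. At least 2-fold differences were called in 7 of 55 members that were higher, beside 12.7% of all genes, and in 1 of 55 that was lower, beside 7.23% of all genes. The BC and WT values did not overlap for 29 of 55 members, beside 57.1% of all genes, with BC higher in 19 of 55 (beside 27.1%) and lower in 10 of 55 (beside 30.0%). A single member, the STAY-GREEN LIKE gene DCAR_031492, passed the filter through its BC values alone, and without it 13 of 54 members, and 2 of 10 breakdown genes, were called higher. Without it 6 members were called at least 2-fold higher, and 28 did not overlap, 18 of them with BC higher.

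**Figure D1:**
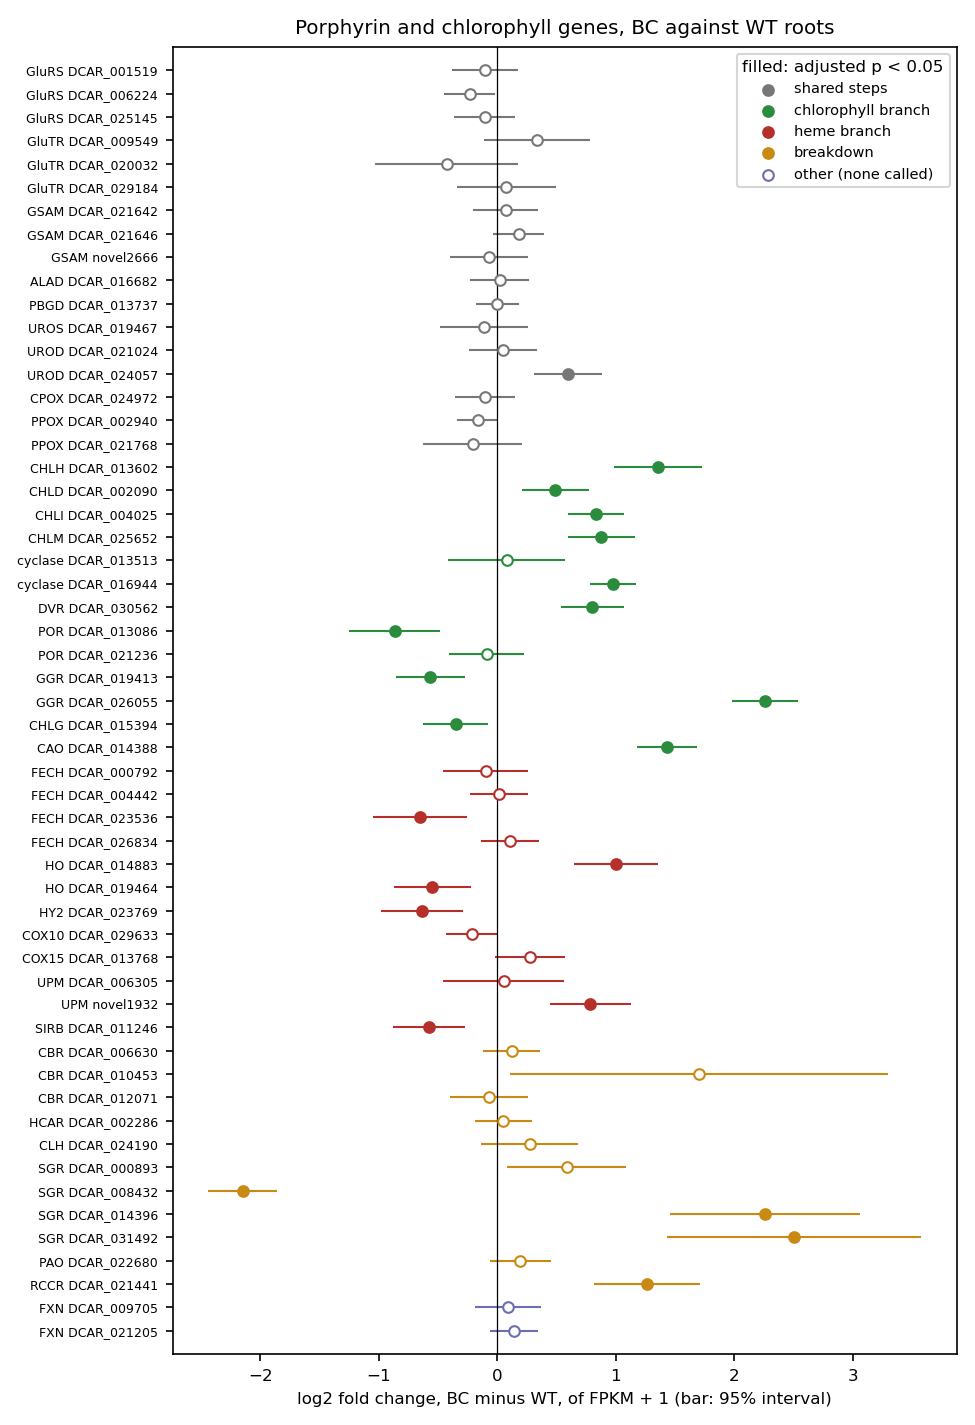
Log2 difference in FPKM + 1 between BC and WT (x axis) of the 55 tested members in pathway order (y axis), with 95% intervals as bars and called genes as filled points. The shared genes cluster around 0 with 1 filled point, while 11 of the 13 chlorophyll-branch genes are filled, 8 to the right and 3 to the left of 0.

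Along the shared route from glutamate to protoporphyrin IX the group means lay close together at most steps. Porphobilinogen deaminase (DCAR_013737), which joins porphobilinogen units into the linear tetrapyrrole, was at 77.5, 83.8 and 79.5 FPKM in WT roots and 82.4, 81.8 and 77.0 FPKM in BC. The groups overlapped, with a log2 difference of 0.00 and a 95% interval of -0.18 to 0.19. For 5-aminolevulinic acid dehydratase (DCAR_016682), the enzyme before it, the means were 78.5 ± 3.34 and 80.1 ± 9.18 FPKM (SD, n = 3 each) and the interval was -0.23 to 0.27. Coproporphyrinogen III oxidase (DCAR_024972) was at 49.0 ± 6.25 FPKM in WT roots and 45.4 ± 0.663 FPKM in BC. Glutamate-1-semialdehyde aminomutase (DCAR_021646), which makes 5-aminolevulinic acid, was the most abundant shared gene, at 105 ± 8.53 and 119 ± 5.0 FPKM. Its groups did not overlap, but it was not called (limma adjusted p = 0.140). Of the 17 shared genes 4 did not overlap between groups, beside 57.1% of all genes. Over the 17 shared genes the 95% intervals reached from -1.03 to 0.88, the widest belonging to glutamyl-tRNA reductase 1.

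Uroporphyrinogen decarboxylase DCAR_024057, which trims the side chains of the ring, was the shared gene that rose. It was at 38.7, 40.6 and 33.8 FPKM in WT roots and at 60.5, 62.4 and 50.1 FPKM in BC. Every BC sample was above every WT sample, and the log2 difference was 0.60 ± 0.12 (SE; limma adjusted p = 0.00708). The other gene for this step, DCAR_021024, was at 24.8 ± 3.0 FPKM in WT roots and 25.6 ± 2.05 FPKM in BC.

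Glutamyl-tRNA reductase 1 (DCAR_020032), the enzyme at which the route is mainly regulated in Arabidopsis, varied most of all shared genes among the WT samples. It was at 57.5, 27.6 and 43.3 FPKM in WT roots and 31.3, 26.7 and 33.1 FPKM in BC. WT replicate 2 lay within the BC values, and the gene was not called (log2 difference -0.43 ± 0.25 SE, limma adjusted p = 0.211). Without WT replicate 2 it was called lower (-0.70, limma adjusted p = 0.0175), while over all 16 alternatives the adjusted p ran from 0.0175 to 0.522. The minor genes for this step, DCAR_009549 and DCAR_029184, were at 7.71 and 3.11 FPKM in WT roots and 10.2 and 3.39 FPKM in BC.

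Protoporphyrinogen oxidase 1 (DCAR_002940), whose product is the substrate of both chelatases, was at 76.5, 81.0 and 75.4 FPKM in WT roots and 68.5, 69.8 and 69.3 FPKM in BC. The groups did not overlap, but the gene was not called (-0.16 ± 0.07 SE, limma adjusted p = 0.110). Under equal totals it was called lower (-0.26, limma adjusted p = 0.0432, range over the alternatives 0.0432 to 0.234). The mitochondrial protoporphyrinogen oxidase (DCAR_021768) overlapped between groups, at 29.2 ± 7.27 and 24.7 ± 1.58 FPKM, as did uroporphyrinogen-III synthase (DCAR_019467), at 30.7 ± 6.70 and 27.96 ± 1.19 FPKM. None of the 3 glutamyl-tRNA synthetases was called, although DCAR_006224 did not overlap between groups. The most abundant was the cytoplasmic DCAR_025145, with 41.5 ± 3.51 and 38.5 ± 3.72 FPKM. Its pathway entry places it among the 17 shared genes, although the shared steps described above lie in the plastid. Aminomutase rows DCAR_021642 and novel2666, which also name another protein, are counted there too. No count of the shared class without these rows was made.

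**Figure D2:**
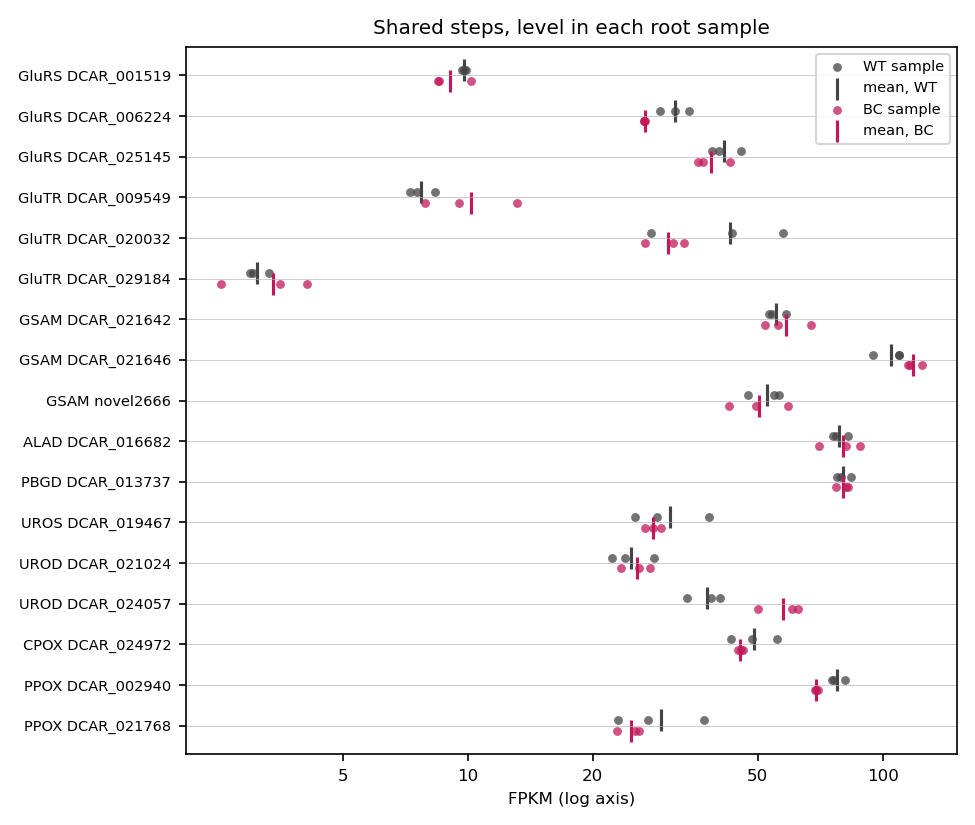
FPKM on a log axis of the 17 tested shared genes (y axis, pathway order) in each WT and BC sample, with group means as vertical marks. Grey WT and pink BC points mix in most genes, and uroporphyrinogen decarboxylase DCAR_024057 is the gene with BC clearly to the right.

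In the chlorophyll branch all 3 subunits of magnesium chelatase, which places magnesium in protoporphyrin IX, rose in BC. The porphyrin-binding subunit CHLH (DCAR_013602) was at 15.9, 13.5 and 13.6 FPKM in WT roots and at 37.2, 32.1 and 47.0 FPKM in BC. It had the lowest WT level of the branch, and its lowest BC value was above 2 times its highest WT value, with a log2 difference of 1.36 ± 0.16 (SE; limma adjusted p = 0.000722). The ATPase subunit CHLI (DCAR_004025) was at 42.5, 49.7 and 40.4 FPKM in WT roots and at 78.6, 77.5 and 82.2 FPKM in BC. Groups were again apart, with a difference of 0.84 ± 0.10 (SE; limma adjusted p = 0.000827). CHLD (DCAR_002090), the subunit that bridges the others, was at 36.2, 47.0 and 37.1 FPKM in WT roots and 54.9, 55.1 and 59.1 FPKM in BC, a smaller difference of 0.49 ± 0.12 (SE; limma adjusted p = 0.0148). Its row is also described as scarecrow-like protein 3, so its value may join a pair of genes. CHLD was not called under equal totals (limma adjusted p = 0.0530) or without WT replicate 3 (limma adjusted p = 0.0642), the range over the alternatives being 0.00313 to 0.0642.

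The next enzymes on the way to protochlorophyllide rose as well. Magnesium protoporphyrin IX methyltransferase (CHLM, DCAR_025652) was at 37.8, 40.4 and 31.6 FPKM in WT roots and 64.7, 65.0 and 74.3 FPKM in BC, a log2 difference of 0.88 ± 0.12 (SE; limma adjusted p = 0.00139). Divinyl reductase (DCAR_030562), which reduces a vinyl group of the ring, was at 21.2, 24.3 and 20.8 FPKM in WT roots and 34.8, 41.5 and 41.9 FPKM in BC (0.81 ± 0.11 SE, limma adjusted p = 0.00170). In both genes the lowest BC sample was above the highest WT sample. The other divinyl reductase rows, DCAR_030558 and DCAR_030560, were at or near 0 in every sample.

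The oxidative cyclase, which closes the isocyclic ring typical of chlorophylls, had a pair of genes, of which DCAR_016944 was called and DCAR_013513 was not. DCAR_016944 was at 87.2, 82.6 and 75.6 FPKM in WT roots and 164, 162 and 159 FPKM in BC, so BC values were nearly identical to each other and all above WT (0.98 ± 0.08 SE, limma adjusted p = 0.000198). DCAR_013513, the most abundant member of the whole pathway, was at 343, 193 and 284 FPKM in WT roots and 284, 301 and 259.8 FPKM in BC. It was not called (0.08 ± 0.21 SE, limma adjusted p = 0.778), and its BC values lay inside the WT range, with WT replicate 2 the lowest of all 6. WT replicate 2 was the lowest WT sample in 6 of the 13 branch genes (46.2%), beside 31.9% of all tested genes, and it also had the lowest summed level of the green tissue markers.

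Protochlorophyllide reductase (POR), the enzyme that needs light to make chlorophyllide, went the other way. DCAR_013086 was at 198, 146 and 151 FPKM in WT roots and 95.3, 99.1 and 74.9 FPKM in BC. Each BC value was below each WT value, and the gene fell by 0.87 ± 0.16 (SE) on the log2 scale (limma adjusted p = 0.00525). The other gene, DCAR_021236, was at 203, 145 and 171 FPKM in WT roots and 163, 167 and 154 FPKM in BC and was not called (-0.09 ± 0.13 SE, limma adjusted p = 0.625). POR was thus a step with high transcript levels in non-transgenic roots, its summed FPKM of 338 ± 57.1 being close to that of the cyclase, 355 ± 77.1.

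The largest rise of the branch was in geranylgeranyl diphosphate reductase (GGR), which makes the phytyl tail of chlorophyll and of tocopherols. DCAR_026055 was at 39.0, 46.8 and 34.9 FPKM in WT roots and at 195, 199 and 192 FPKM in BC. The BC samples were close to each other and all more than 4 times the highest WT value, with a log2 difference of 2.26 ± 0.12 (SE; limma adjusted p = 2.04e-05). DCAR_019413, the other GGR gene, fell by 0.56 ± 0.12 (SE) on the log2 scale (limma adjusted p = 0.0101), from 71.9, 56.5 and 73.5 FPKM in WT to 44.8, 47.9 and 42.2 FPKM in BC, again with no overlap.

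Chlorophyllide a oxygenase (CAO, DCAR_014388), which makes chlorophyll b for the light-harvesting antenna, was at 31.8, 32.2 and 29.7 FPKM in WT roots and 81.6, 79.2 and 98.2 FPKM in BC. The lowest BC value was above 2 times the highest WT value (1.43 ± 0.11 SE, limma adjusted p = 0.000104). Chlorophyll synthase (CHLG, DCAR_015394), which attaches the phytyl tail, was at 79.2, 74.7 and 76.1 FPKM in WT roots and 61.1, 68.4 and 51.5 FPKM in BC. It was called lower by a narrow margin (-0.35 ± 0.12 SE, limma adjusted p = 0.0446), and 9 of 16 alternatives left it uncalled, with adjusted p between 0.0104 and 0.118. These included leaving out any of WT replicates 1, 2 and 3 (limma adjusted p = 0.117, 0.0718 and 0.118) or BC replicates 1 and 3 (0.103 and 0.0643).

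Summed over the branch, FPKM was 1206, 951 and 1039 in WT and 1359, 1395 and 1337 in BC, with no overlap. The summed green tissue markers were also higher in BC, at 2568 to 4154 FPKM in WT and 12762 to 13776 FPKM in BC. None of the 29 markers was at 0 in all samples. The branch did not move as a set, since POR DCAR_013086, GGR DCAR_019413 and CHLG were called lower. The part of the green tissue markers in the changes of the chlorophyll genes was not tested.

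**Figure D3:**
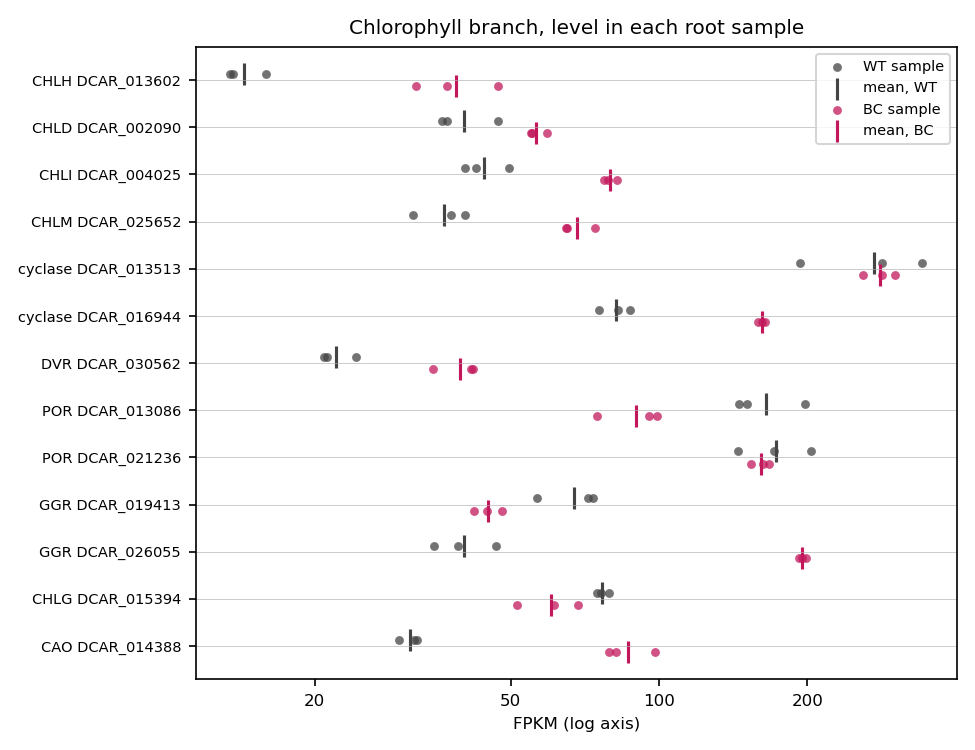
FPKM on a log axis of the 13 tested chlorophyll-branch genes (y axis, pathway order) in each WT and BC sample, with group means as vertical marks. BC points lie to the right of all WT points in 8 genes, from CHLH to CAO, and to the left in POR DCAR_013086, GGR DCAR_019413 and CHLG.

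On the heme side, the 4 ferrochelatases, which insert iron into protoporphyrin IX, gave no common direction. The most abundant, DCAR_026834, was at 28.6, 34.03 and 28.7 FPKM in WT roots and 32.98, 31.3 and 34.2 FPKM in BC, with overlapping groups (0.11 ± 0.10 SE, limma adjusted p = 0.412). DCAR_004442 was at 13.5 ± 0.326 and 13.6 ± 1.05 FPKM, and DCAR_000792 at 4.35 ± 0.448 and 4.02 ± 0.574 FPKM. DCAR_023536 fell by 0.65 ± 0.17 (SE) on the log2 scale (limma adjusted p = 0.0187), from 14.3, 19.2 and 15.4 FPKM in WT to 8.40, 9.89 and 11.8 FPKM in BC. That call was lost without WT replicate 3 (limma adjusted p = 0.0551) and without BC replicate 1 (limma adjusted p = 0.0653), in a range over the alternatives of 0.00698 to 0.0653.

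The enzymes that turn heme into the phytochrome chromophore moved in opposite directions. Heme oxygenase 1 (DCAR_014883), which opens the heme ring to biliverdin, was at 49.9, 42.5 and 41.2 FPKM in WT roots and 95.8, 103.9 and 73.7 FPKM in BC. All BC samples were above all WT samples, a log2 difference of 1.01 ± 0.15 (SE; limma adjusted p = 0.00210). Phytochromobilin:ferredoxin oxidoreductase (HY2, DCAR_023769), which reduces biliverdin to phytochromobilin, was at 30.1, 36.7 and 31.4 FPKM in WT roots and 18.5, 19.02 and 25.01 FPKM in BC. It fell by 0.63 ± 0.14 (SE) on the log2 scale (limma adjusted p = 0.0121), without overlap.

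A row described as a probable inactive heme oxygenase 2 (DCAR_019464) was at 6.64, 7.69 and 6.70 FPKM in WT roots and 4.18, 4.18 and 5.13 FPKM in BC. It was called lower (-0.55 ± 0.14 SE, limma adjusted p = 0.0174), and lost the call on leaving out WT replicate 3, or BC replicates 1 or 2, and with a replicate block (limma adjusted p = 0.0576, 0.0656, 0.0527 and 0.0571, in a range over the alternatives of 0.00239 to 0.0656). In the DH1 v3.0 RefSeq annotation its gene lies 4 genes from that of uroporphyrinogen-III synthase, a shared gene that was not called. Another heme oxygenase 1 row, DCAR_017814, was not tested, at 0.393 ± 0.0751 FPKM in WT roots and 0.0800 ± 0.0800 FPKM in BC.

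Heme for the mitochondrial cytochrome oxidase is modified by heme O synthase (COX10, DCAR_029633) and heme A synthase (COX15, DCAR_013768). COX10 was at 102, 92.9 and 104.8 FPKM in WT roots and 84.0, 93.2 and 80.9 FPKM in BC, with 1 BC sample just inside the WT range, and was not called (-0.21 ± 0.09 SE, limma adjusted p = 0.101). Under equal totals it was called lower (-0.31, limma adjusted p = 0.0266, range over the alternatives 0.0266 to 0.288). COX15 was at 16.4 ± 1.96 and 20.1 ± 1.93 FPKM, without overlap, and was not called (0.28 ± 0.13 SE, limma adjusted p = 0.113).

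Siroheme, the cofactor of nitrite and sulfite reductases, leaves the route at uroporphyrinogen III. Its last enzyme, sirohydrochlorin ferrochelatase (DCAR_011246), was at 34.6, 42.5 and 47.4 FPKM in WT roots and 26.7, 28.1 and 27.2 FPKM in BC. WT spread widely and BC narrowly, without overlap, and the gene fell by 0.57 ± 0.13 (SE) on the log2 scale (limma adjusted p = 0.0104). The methyltransferase at the start of this side route was represented by novel1932, at 4.97, 5.74 and 5.80 FPKM in WT roots and 10.2, 11.7 and 8.83 FPKM in BC, which rose (0.79 ± 0.14 SE, limma adjusted p = 0.00488). The more abundant methyltransferase DCAR_006305 was at 16.3 ± 3.85 and 16.96 ± 4.04 FPKM.

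Chlorophyll breakdown held the largest fall among all members, in the STAY-GREEN family that takes magnesium out of chlorophyll a. DCAR_008432, described as STAY-GREEN, was at 40.7, 34.2 and 43.2 FPKM in WT roots and 8.21, 8.61 and 7.44 FPKM in BC. Its lowest WT value was nearly 4 times its highest BC value, and it fell by 2.15 ± 0.12 (SE) on the log2 scale (limma adjusted p = 3.16e-05). The other gene described as STAY-GREEN, DCAR_000893, was at 39.7, 29.5 and 42.9 FPKM in WT roots and 57.6, 70.2 and 43.2 FPKM in BC. BC replicate 3 only just exceeded the highest WT sample, and the gene was not called (0.59 ± 0.21 SE, limma adjusted p = 0.0584) but was called higher without BC replicate 3 (0.77, limma adjusted p = 0.0217, range over the alternatives 0.0217 to 0.150).

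A pair of genes was described as STAY-GREEN LIKE; in Arabidopsis the protein of that name acts mainly on chlorophyllide a. DCAR_014396 rose from a low level, being at 1.47, 3.79 and 1.68 FPKM in WT roots and 14.8, 9.69 and 19.7 FPKM in BC (2.26 ± 0.34 SE, limma adjusted p = 0.00216). DCAR_031492 was at 0.78, 0.57 and 0.25 FPKM in WT roots and 14.6, 3.34 and 8.51 FPKM in BC; since only its BC values let it pass the filter, its level is given as a description. BC replicate 2 was the lowest BC sample for both. For DCAR_014396 it was still above every WT sample, whereas for DCAR_031492 the filter itself placed the BC values above WT. At such low WT levels the size of the log2 difference depends on the pseudocount and ran from 1.41 to 2.68 for DCAR_014396 and from 1.24 to 3.68 for DCAR_031492 over the alternatives.

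At the end of the breakdown route, red chlorophyll catabolite reductase (DCAR_021441), which makes the colourless fluorescent catabolite, was at 20.6, 14.5 and 16.7 FPKM in WT roots and 46.3, 49.7 and 33.4 FPKM in BC. It rose by 1.27 ± 0.19 (SE) on the log2 scale (limma adjusted p = 0.00218), without overlap. Pheophorbide a oxygenase (DCAR_022680), which opens the chlorophyll ring just before it, was the most abundant breakdown gene, at 77.5 ± 4.44 and 89.1 ± 10.7 FPKM. Its groups did not overlap, but it was not called (limma adjusted p = 0.183). Chlorophyllase 2 (DCAR_024190) was at 15.2 ± 1.92 and 18.7 ± 3.84 FPKM and was not called (limma adjusted p = 0.230), and chlorophyllase 1 (DCAR_005858) was near 0 in all samples.

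Chlorophyll b is turned back into chlorophyll a before it is degraded. Chlorophyll b reductases NOL (DCAR_006630) and NYC1 (DCAR_012071) were at 23.5 ± 1.70 and 23.02 ± 2.89 FPKM in WT roots and 25.7 ± 1.66 and 21.9 ± 2.79 FPKM in BC. The next enzyme, 7-hydroxymethyl chlorophyll a reductase (DCAR_002286), was at 16.8 ± 1.14 and 17.4 ± 0.876 FPKM. None of these was called. A further NYC1 row, DCAR_010453, whose description also names an uncharacterized protein, was at 10.6, 32.3 and 14.1 FPKM in WT roots and 64.6, 22.3 and 131 FPKM in BC. It overlapped through WT replicate 2 and BC replicate 2 and was not called (1.70 ± 0.67 SE, limma adjusted p = 0.0771), but was called higher without BC replicate 2 (2.37, limma adjusted p = 0.0150, range over the alternatives 0.0150 to 0.203).

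**Figure D4:**
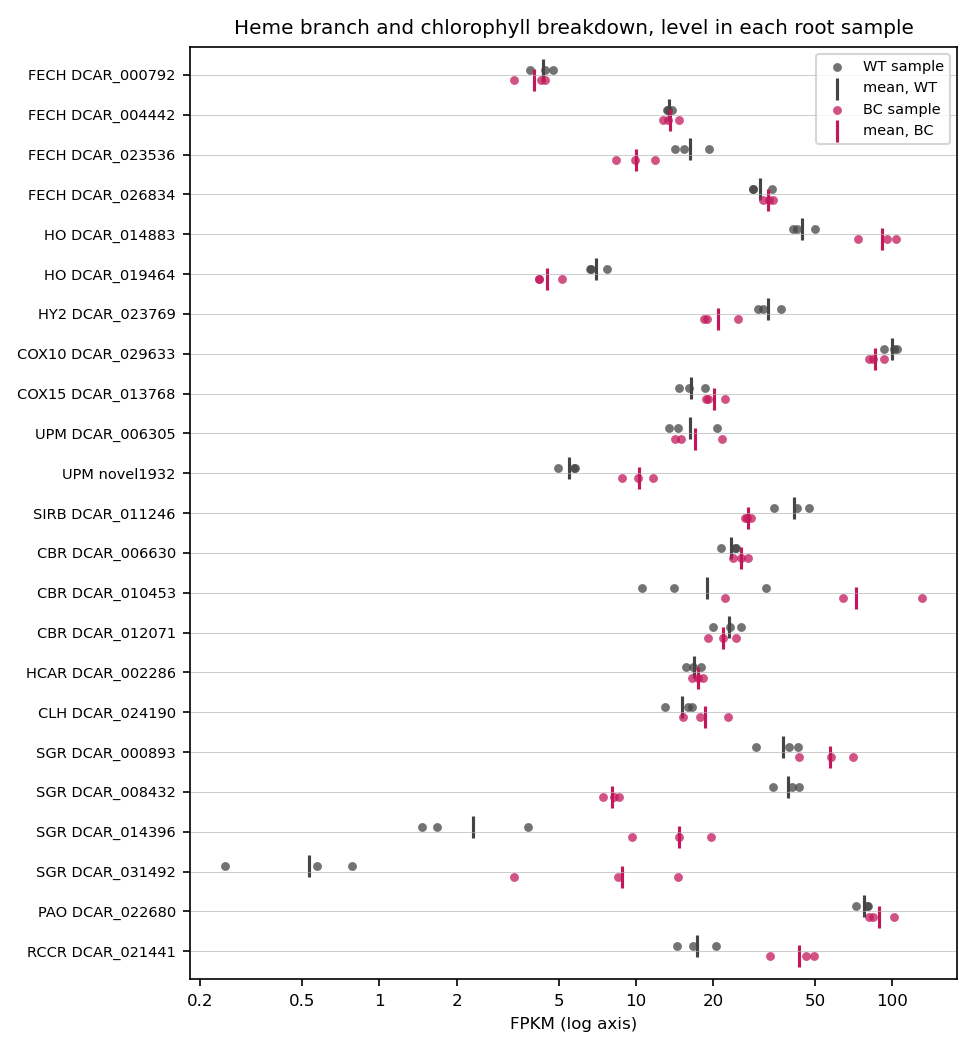
FPKM on a log axis of the 12 tested heme-branch genes and the 11 tested breakdown genes (y axis, pathway order) in each WT and BC sample, with group means as vertical marks. In the STAY-GREEN family (SGR) BC lies far left for DCAR_008432 and far right for DCAR_014396 and DCAR_031492; heme oxygenase 1 (HO DCAR_014883) is right and HY2 left.

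The make-up of 14 steps with at least 2 tested genes was compared by the share each gene had in the summed FPKM of its step. Summed FPKM of GGR was 107.5 ± 3.92 in WT and 240.5 ± 6.17 in BC, and the share of DCAR_026055 in it went from 37.6% ± 6.87 to 81.3% ± 0.723 (SD, n = 3 each). For the STAY-GREEN family the sums overlapped, 79.6 ± 10.3 and 88.6 ± 8.59 FPKM, while the share of DCAR_008432 went from 49.5% ± 0.629 to 9.14% ± 0.446. DCAR_000893 stood at 63.9% in BC against 46.7% in WT, and DCAR_014396 at 17.02% against 3.08%. DCAR_031492, which passed the filter through its BC values alone, stood at 9.91% against 0.688%. A fall in the share of DCAR_008432 raises the summed share of the others, and DCAR_000893 itself was not called. For ferrochelatase the sums also overlapped, 64.6 ± 6.02 and 60.5 ± 1.60 FPKM, with DCAR_023536 at 25.2% ± 1.73 in WT and 16.6% ± 2.41 in BC. Cyclase sums of 355 ± 77.1 and 443 ± 22.5 FPKM overlapped too, DCAR_016944 making up 23.7% ± 5.36 in WT and 36.5% ± 1.5 in BC. POR sums did not overlap, 338 ± 57.1 in WT and 251 ± 19.7 in BC, and the share of DCAR_013086 went from 48.8% ± 1.69 to 35.6% ± 2.51. Of the 32 pairs of genes within a step, 13 had a log ratio that did not overlap between groups. Among the 13 are the pairs of DCAR_031492 with DCAR_000893 and DCAR_008432, which the filter favoured. No share over all genes was computed for such ratios. With 3 samples against 3 the exact two-sided permutation test cannot go below p = 0.1. Adjusted over the 32 pairs, the smallest value was 0.246. The authors' counting divides reads between similar genes, so shares of close copies are uncertain.

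**Figure D5:**
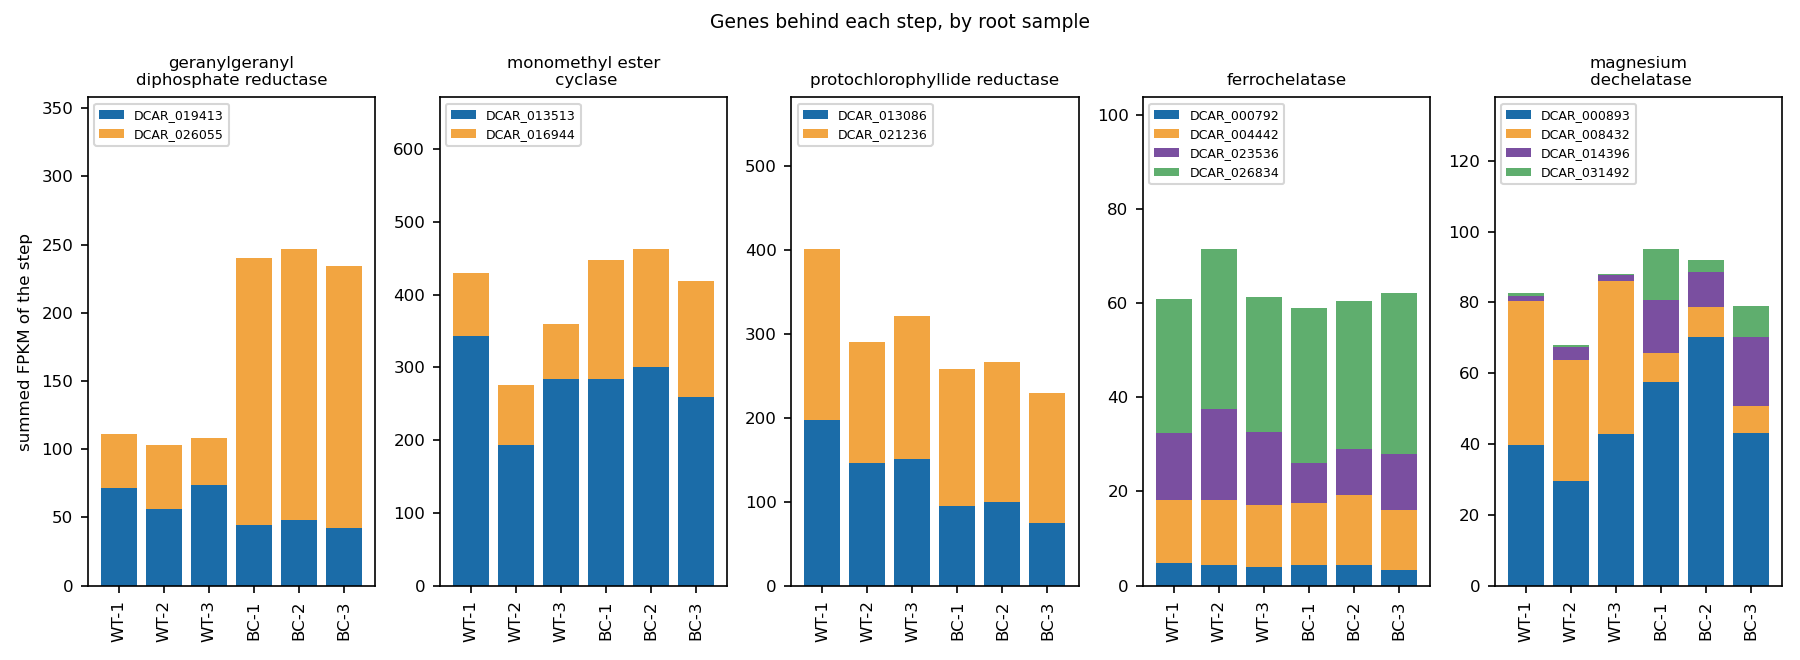
Summed FPKM of 5 steps in each sample (x axis WT-1 to BC-3; linear y axes from 0, with a scale of their own in each panel), each bar split by gene. GGR more than doubles in BC through DCAR_026055, whereas the ferrochelatase and magnesium dechelatase bars have similar heights in both groups and a different make-up.

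Ratios of enzymes that compete for or pass on a substrate were compared next. CHLH over summed ferrochelatase, the entry points of the branches at protoporphyrin IX, was 0.261, 0.188 and 0.223 in WT and 0.630, 0.532 and 0.757 in BC, a 2.86-fold higher mean. Summed heme oxygenase over HY2 was 1.60 ± 0.264 in WT and 4.75 ± 1.39 in BC. Summed POR over CAO was 10.8 ± 1.81 in WT and 2.95 ± 0.547 in BC, and summed GGR over CHLG was 1.40 ± 0.0214 and 4.03 ± 0.480. CHLH over CHLI, a ratio within magnesium chelatase itself, was 0.327 ± 0.0518 in WT and 0.486 ± 0.0801 in BC. All 6 ratios computed, the last being CHLI over summed ferrochelatase at 0.684 ± 0.0213 and 1.31 ± 0.0260, separated the groups without overlap. Each gave an exact two-sided permutation p of 0.1, the smallest that 3 samples against 3 allow, and 0.1 after adjustment over the 6. The ratios reuse genes described above and were chosen with earlier results of these data known, so their separation adds no further support.

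Regulators and partners of the pathway that lie outside its KEGG map gave 19 rows by description, of which 15 were tested, 5 were called higher and 3 lower, beside 22.8% and 23.5% of all genes. These rows include the ferritins and pheophytinases described further on, and most of the rows called higher were ferritins. HY5 (DCAR_003095), a light-signalling factor that in Arabidopsis binds promoters of chlorophyll genes, was at 10.4, 9.89 and 6.81 FPKM in WT roots and 30.2, 23.6 and 35.6 FPKM in BC. It rose without overlap (1.62 ± 0.20 SE, limma adjusted p = 0.00111). GLK1 (DCAR_013033), a factor that in Arabidopsis drives chlorophyll branch genes, was at 28.2, 10.8 and 15.6 FPKM in WT roots and 25.2, 27.6 and 17.4 FPKM in BC and was not called (0.42 ± 0.34 SE, limma adjusted p = 0.349). PIF3 (DCAR_029297), a phytochrome-interacting factor, was at 25.5 ± 1.23 and 19.4 ± 5.80 FPKM, not called (limma adjusted p = 0.135), and called lower without BC replicate 3 (-0.63, limma adjusted p = 0.0161, range over the alternatives 0.0161 to 0.318). A low GATA factor 22 row (DCAR_004426) was at 2.49, 2.39 and 2.47 FPKM in WT roots and 0.75, 1.34 and 0.31 FPKM in BC. It fell by 0.98 ± 0.23 (SE) on the log2 scale (limma adjusted p = 0.0137). At this low level the log2 difference depends on the pseudocount, and it ran from -1.68 to -0.36 over the alternatives.

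Proteins that act on glutamyl-tRNA reductase were on the same list. The glutamyl-tRNA reductase-binding protein (DCAR_007669), which anchors or shields the enzyme, was at 38.0, 48.8 and 41.5 FPKM in WT roots and 56.8, 54.3 and 59.5 FPKM in BC. It was called higher (0.41 ± 0.11 SE, limma adjusted p = 0.0229), but not under equal totals (0.0930), with a replicate block (0.0580), without WT replicates 1 or 3 (0.0659 and 0.0847) or without BC replicates 1 or 3 (0.0708 and 0.0540), all limma adjusted p, from a range over the alternatives of 0.00758 to 0.0930. FLUORESCENT IN BLUE LIGHT (DCAR_016106), which holds 5-aminolevulinic acid synthesis back in the dark, was at 41.3 ± 2.42 and 36.7 ± 4.27 FPKM and was not called (limma adjusted p = 0.239). A further row matched by this name, DCAR_022662, is described first as a vesicle transport protein, was at 81.1 ± 3.11 and 72.9 ± 5.501 FPKM and was not called (limma adjusted p = 0.190); under equal totals it was called lower (limma adjusted p = 0.0440, range over the alternatives 0.0440 to 0.355).

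Pheophytinase, which removes the phytyl tail during breakdown, was also outside the map here, with 3 rows. The low novel569 was at 8.86, 7.27 and 7.29 FPKM in WT roots and 4.4, 3.39 and 4.27 FPKM in BC and fell by 0.81 ± 0.15 (SE) on the log2 scale (limma adjusted p = 0.00513). The more abundant DCAR_031814 and DCAR_016063 were at 49.8 ± 4.77 and 39.1 ± 5.44 FPKM in WT roots and 56.5 ± 9.85 and 45.9 ± 5.03 FPKM in BC, and neither was called.

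The remaining members were frataxins, mitochondrial iron proteins, and 3 untested UDP-glycosyltransferase rows near 0. Frataxin DCAR_021205 was at 91.4 ± 2.73 and 101 ± 7.52 FPKM, without overlap. DCAR_009705 was at 9.87, 9.04 and 9.03 FPKM in WT roots and 9.28, 9.7 and 11.02 FPKM in BC roots. Neither frataxin was called. Of the 41 tested members described as chloroplastic 12 were called higher (29.3%, beside 22.8% of all genes) and 8 lower (19.5%, beside 23.5%). Within groups the median SD of the members was 0.148 on the log2 scale beside 0.183 over all tested genes.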

How the data were processed

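RNA-seq of fleshy roots was deposited by the authors as 1 table of FPKM values per gene and sample, with protein descriptions and KEGG entries. RSEM is named in the submitters' processing notes, without a version; the sources used here name no aligner, genome build or annotation. RSEM divides reads shared by similar genes, so values of close copies are uncertain. No sequenced depth is known, so no counting interval is given. Columns were assigned to samples through the GEO descriptions.

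From the deposited FPKM, log2(FPKM + 1) was fitted with limma 3.58.1 (lmFit, eBayes with a trend; R 4.3.3), BC against WT, for genes that reached 1 FPKM in 3 or more of 6 samples, with Benjamini-Hochberg adjustment and a threshold of 0.05. The script was tested on simulated data. Ratios and shares used Python 3.11.15, with exact permutation tests. Members were put in steps by their KEGG orthology entries; 62 have locus IDs and 2 numbered IDs, and 53 matched a RefSeq gene of DH1 v3.0, used for names and neighbours only. The descriptions of 4 tested members name another protein as well (CHLD DCAR_002090, aminomutases DCAR_021642 and novel2666, and NYC1 DCAR_010453). DCAR_021642 and DCAR_021646 match the same RefSeq gene.

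Named members were those called whose mean in either group was 5 FPKM or more, the most abundant of each step, and the largest rise and fall of each class; a few others were named after their values were seen. Members, lists, steps and ratios were chosen with earlier results of these data known, and the search word for pheophytinase was added to the partner list. No rows matched GUN4, LIL3, BCM, TSPO or cpSRP43 by description. Alternatives covered the pseudocount, filter, scaling, moderation, replicate block and leaving out each sample.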

Additional observations from a re-analysis of the deposited data

How the results depend on the processing

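Under 16 alternatives and the added one without members that name another protein, the number of members called higher stayed between 13 and 15 (main 14). Members called lower numbered 5 to 8 when 1 sample was left out (main 8), with 5 without WT replicate 3 or BC replicate 1, and heme-branch members called lower 2 to 4 (main 4), with 2 without either of these. Under equal totals 13 members were called higher and 11 lower, and over all genes 4059 and 5647; quantile normalization gave 14 and 8 members, and 4306 and 6023 genes (main 4806 and 4943). Shared-step members called lower went from 0 to 2 under equal totals, and to 1 without WT replicate 2 (0 to 1 when 1 sample was left out). Over all genes, calls lower in BC were 3193 to 5203 when 1 sample was left out, the lowest without WT replicate 3. With fewer samples part of the loss follows from the design; other causes were not tested. The 55 named genes of this check mix members with partner genes and are not the 55 tested members. Of these named genes, 30 were called, and 23 of these never lost the call where they were tested. DCAR_031492 and DCAR_004426 are among the 23 but were not tested under the alternative filter at 5 FPKM. Under at least 1 alternative 14 named genes changed side of the threshold. No called gene changed sign, while 8 uncalled genes did. Depth behind the FPKM is unknown, and members with low WT values have folds set largely by the pseudocount.

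The labels do not say whether the replicate numbers pair the samples. Deviations of same-numbered samples from their group means correlated at 0.196, -0.356 and -0.195, which gave no common direction but cannot settle the question. With the replicate block, limma called 14 members higher and 6 lower, and 4032 genes higher and 3921 lower over the table.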

Other observations

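Ferritins, the plastid iron stores, were searched by description as part of the partner list above and did not move together. Ferritin-3 (DCAR_011843) was the most abundant, at 662, 658 and 614 FPKM in WT roots and 969, 882 and 803 FPKM in BC. It was called higher (log2 difference 0.45 ± 0.11 SE, limma adjusted p = 0.0173), though not without WT replicate 3 (0.0844) or BC replicate 1 (0.0621), in a range over the alternatives of 0.0125 to 0.0844. DCAR_028879 was at 150.1, 135 and 148 FPKM in WT roots and 68.0, 60.3 and 54.6 FPKM in BC and fell by 1.24 ± 0.10 (SE) on the log2 scale (limma adjusted p = 0.000190). Ferritin-2 (DCAR_024802) was at 5.22, 4.04 and 4.38 FPKM in WT roots and 20.7, 24.7 and 12.7 FPKM in BC and rose by 1.83 ± 0.24 (SE; limma adjusted p = 0.00135). DCAR_024000 was at 60.4 ± 11.9 FPKM in WT roots and 97.3 ± 22.3 FPKM in BC (SD, n = 3 each) and was called higher (0.67 ± 0.21 SE, limma adjusted p = 0.0349). That call was lost in 5 of 16 alternatives: without a filter on low values (0.0513) and without WT replicate 2 (0.0689), WT replicate 3 (0.110), BC replicate 1 (0.104) or BC replicate 2 (0.0759), in a range of 0.00691 to 0.110. In all 4 genes the BC and WT values did not overlap, beside 57.1% of all tested genes.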
